A study of Rattus norvegicus with 12 samples.

Results

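The retinoic acid genes described here are 9 genes chosen by name from the 40154 genes of the deposited gene table. They are the retinol carrier Rbp4, its membrane receptor Stra6, the retinal reductase Dhrs3, the retinal dehydrogenases Aldh1a1, Aldh1a2 and Aldh1a3, the retinoic acid binding proteins Crabp1 and Crabp2, and the retinoic acid receptor Rarb. Of the 9 genes, 8 had enough reads to be tested, and Crabp1 did not. RNA from whole bladder of female Wistar rats aged 10 to 12 weeks was measured in 4 groups of 3 libraries. One group was labelled normal control, with no operation named, and the other groups were taken 7, 14 and 28 days after complete transection of the spinal cord at thoracic segment 10. No label names a mutation, a sham operation, an added agent or a way of bladder emptying. The labels do not tie a library to a rat, so p-values measure the spread between these libraries, which may in part be technical. In whole tissue, fewer cells of a type and less RNA per cell cannot be told apart.

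Retinoic acid is a small lipid hormone made from vitamin A. Retinol leaves the liver bound to RBP4, enters cells with the help of STRA6, and is oxidised to retinal, which the ALDH1A enzymes oxidise irreversibly to retinoic acid. DHRS3 runs the preceding step backwards, from retinal to retinol. CRABP proteins carry retinoic acid inside the cell, and the receptors RARA, RARB and RARG, paired with RXR partners, bind repeats of a short sequence in DNA and turn on targets that include Rarb itself and the CYP26 enzymes that break retinoic acid down. In the bladder, retinoic acid is known for its part in forming and renewing the urothelium, the lining epithelium.

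The clearest change was in Aldh1a3, which was 25.8-fold higher 28 days after transection than in controls. Stra6 was also higher at day 28. At day 7 Rbp4 was higher and Crabp2 was lower than in controls, and at day 14 both overlapped the controls. Rarb and Dhrs3 passed the test in no comparison with control.

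The total of gene counts ran from 26275314 to 30747936 per library. Levels are given as CPM, reads of the gene per 1e6 reads, after scaling of library sizes, and a gene was called where the Benjamini-Hochberg adjusted p of edgeR's quasi-likelihood test, adjusted over all 17687 tested genes, was below 0.05. Replicates of 1 group differed by far more than counting noise, with a chi-square per degree of freedom between 11.9 and 90.1. At day 7 against control, 2 of the 8 members were called (Rbp4 higher, Crabp2 lower), where 26.1% of all tested genes were called, 15.6% higher and 10.5% lower. At day 14, edgeR called 0 members, 2 had an unadjusted p below 0.05 and DESeq2 called 1, where edgeR called 2.45% of all genes. At day 28, 2 members were called, both higher (Aldh1a3 and Stra6), where 18.5% of all genes were called, 11% higher. The control and later libraries did not overlap for 5 of the 8 members at day 7 (45.3% of all genes), 3 at day 14 (24.7%) and 3 at day 28 (40.5%). The median log2 fold change of the 8 members was 0.06 at day 7, -0.03 at day 14 and 0.05 at day 28, and that of all tested genes was -0.01, 0.00 and 0.00. These 3 comparisons share the control libraries. With 8 members these counts are close to those shares, and what follows concerns single genes. Red blood cell markers (Hba-a1, Hbb and Alas2) summed to between 149 and 719 CPM in controls and between 394 and 8151 CPM at day 7, highest in day-7 replicate 3, and both day-7 calls held without that library.

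**Figure D1:**
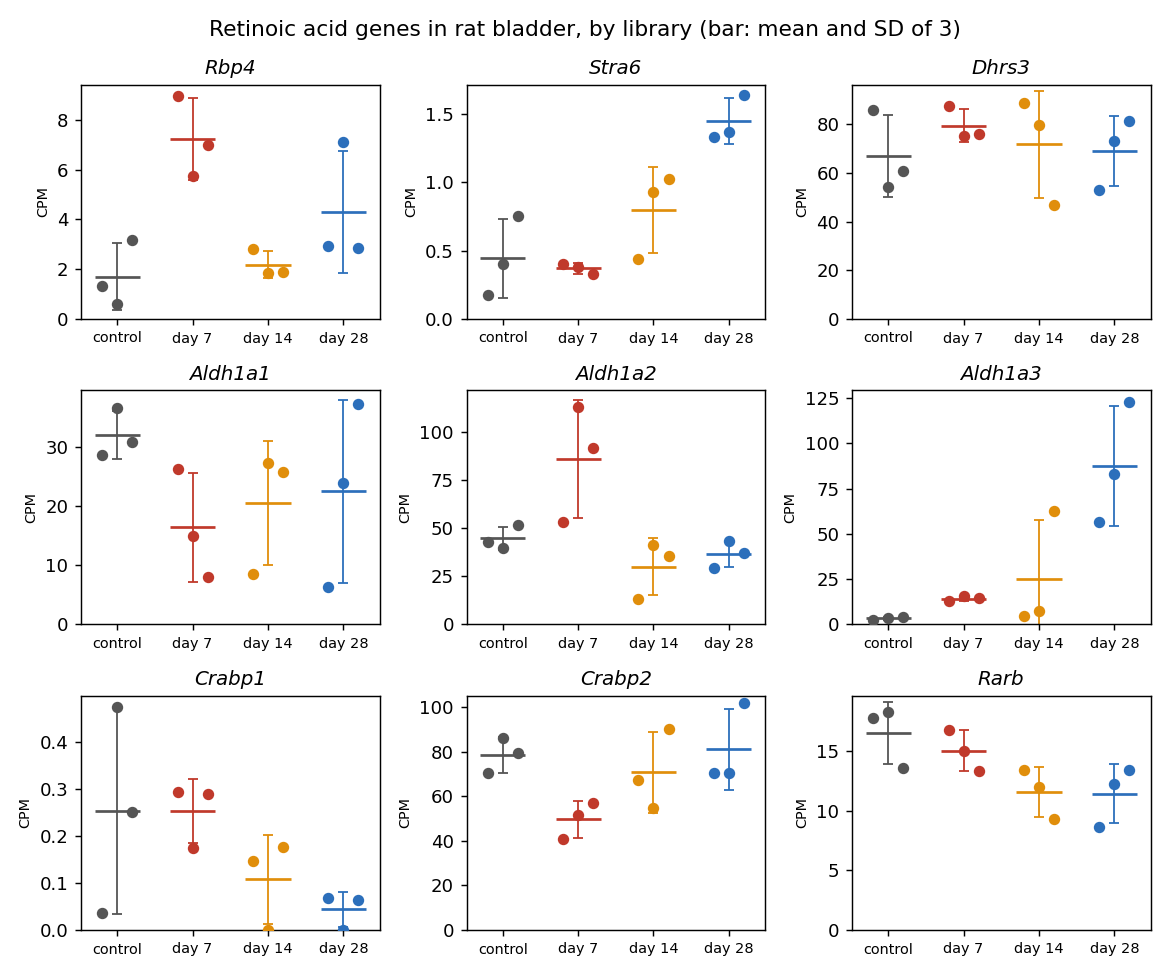
Level of each of the 9 genes in every library, in CPM on a linear axis that starts at 0, with 1 point per library and the mean and SD of 3 libraries per group (the lower SD bar of Aldh1a3 at day 14 runs below 0 and is not drawn in full). Aldh1a3 lay between 2.54 and 3.89 CPM in controls and between 56.7 and 123 CPM at day 28, and its day-14 libraries were split.

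Rbp4, the blood carrier of retinol, is also made by fat cells and other tissues outside the liver. Its gene lies on rn6 chromosome 1 at 256806476 to 256813678. It stood at 1.32, 0.583 and 3.18 CPM in the control libraries and at 8.98, 5.74 and 6.99 CPM at day 7. Every day-7 library was above every control library. Levels were 2.80, 1.86 and 1.88 CPM at day 14 and 2.94, 7.13 and 2.86 CPM at day 28. The day-14 libraries lay within the control range, and the day-28 group had 1 library well above the other two. At day 7 Rbp4 was higher than in controls by 2.09 ± 0.54 (log2 fold change ± SE; adjusted p = 0.0152), a 4.26-fold difference on 16 to 89 counts in control libraries and 165 to 245 at day 7. Without control replicate 1 the adjusted p was 0.0624, and without control replicate 3 the change was 2.91. The change at day 14 was 0.36 ± 0.53 (adjusted p = 0.793) and at day 28 it was 1.34 ± 0.53 (adjusted p = 0.105). Without control replicate 3, the highest control, the day-28 change was 2.16 (adjusted p = 0.0247).

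Marker genes of several cell types moved with Rbp4 at day 7. Of the 6 fat cell genes listed (Adipoq, Plin1, Cidec, Lep, Cfd and Fabp4), 5 were called higher and Fabp4 was called lower. Adipoq, a hormone gene restricted to fat cells, went from 0.154 ± 0.176 CPM (SD, n = 3) in controls to 20.3 ± 20.4 CPM at day 7. The summed level of the 6 genes, which Fabp4 dominates, was 314 to 320 CPM in controls and 249 to 421 CPM at day 7. Cidec and Lep were at 0 in 1 or more control libraries, and none of the 6 was at 0 at day 7. Endothelial, macrophage and proliferation genes each had 4 of 4 called higher at day 7. Their sums went from 130 to 146 CPM in controls to 388 to 444 CPM, from 205 to 241 CPM to 544 to 704 CPM, and from 16.5 to 39.2 CPM to 310 to 438 CPM, respectively, and none of these genes was at 0 in any library. Of the other lists, 3 of 5 dendritic cell, 3 of 5 smooth muscle and 3 of 3 red blood cell genes were called higher at day 7, and 5 of 7 urothelial and 3 of 4 Schwann cell genes lower. Of 3 tested skeletal muscle genes, 1 was called higher and 1 lower. The skeletal muscle sum was 120 to 129 CPM in controls and 928 to 1640 CPM at day 7. That sum did not follow its list, whose log2 fold changes ran from -1.82 to 4.05 with a median of -0.72. Of 6 fibroblast genes, 1 was called higher, with sums of 11516 to 15487 CPM in controls and 19160 to 23819 CPM at day 7. Their log2 fold changes ran from -0.90 to 1.34, with a median of 0.11. The part of these cells in the Rbp4 result was not tested. Markers of liver, the main source of blood RBP4, were close to 0: Alb, Apoa2, Ttr and Serpina1 summed to between 0.0963 and 1.06 CPM over the 12 libraries.

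Stra6, the membrane receptor that passes retinol from RBP4 into cells, was the lowest of the tested members per deposited gene length. Its gene lies on rn6 chromosome 8 at 62925364 to 62944438. Control libraries held 5, 11 and 21 reads of it (0.174, 0.401 and 0.750 CPM), and day-7 libraries 11, 11 and 9 (0.403, 0.382 and 0.326 CPM). Day-14 libraries held 12, 27 and 29 (0.437, 0.928 and 1.03 CPM), and day-28 libraries 40, 41 and 51 (1.33, 1.37 and 1.64 CPM). All 3 day-28 libraries were above every other library. Stra6 was higher at day 28 than in controls by 1.70 ± 0.48 (adjusted p = 0.0303), a 3.26-fold difference. The call rests on few reads: it was lost without control replicate 1 or 2 or day-28 replicate 2 or 3, with adjusted p between 0.0659 and 0.0998. Without control replicate 3 the change was 2.31. At day 7 the difference from control was -0.25 ± 0.51 (adjusted p = 0.758) and at day 14 it was 0.85 ± 0.49 (adjusted p = 0.402).

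Dhrs3 is a reductase that returns retinal to retinol and is a known target of retinoic acid. It had the highest mean level of the members per deposited gene length in control, day-7 and day-14 bladder. This rank depends on the gene length used for Crabp2. The Dhrs3 gene lies on rn6 chromosome 5 at 162809090 to 162843385. Its level was 86.0, 54.0 and 60.9 CPM in controls, 87.4, 75.1 and 76.0 CPM at day 7, 88.8, 79.7 and 46.8 CPM at day 14, and 53.2, 73.0 and 81.3 CPM at day 28. The 4 groups overlapped throughout. The differences from control were 0.25 ± 0.24 at day 7 (adjusted p = 0.484), 0.10 ± 0.24 at day 14 (adjusted p = 0.881) and 0.05 ± 0.24 at day 28 (adjusted p = 0.919).

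The 3 retinal dehydrogenases, which share the last step of retinoic acid synthesis, took different courses. Aldh1a3 lies on rat chromosome 1 at 127302920 to 127337828 of the rn6 assembly, minus strand, and no other gene of the table overlaps it or any other member. Control libraries stood at 2.54, 3.72 and 3.89 CPM (73 to 109 counts). Day-7 libraries were at 12.6, 15.4 and 14.6 CPM, all above every control. Day-14 libraries were at 4.66, 7.19 and 62.9 CPM, so that replicates 1 and 2 lay between control and day 7 and replicate 3 lay in the day-28 range. Day-28 libraries were at 56.7, 83.0 and 123 CPM (1701 to 3822 counts). The group means were 3.38 ± 0.736, 14.2 ± 1.43, 24.9 ± 32.9 and 87.5 ± 33.2 CPM (SD, n = 3 each).

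Against control, Aldh1a3 was higher at day 28 by 4.69 ± 0.86 (adjusted p = 0.00360), and this call held under all 19 alternatives, with log2 fold changes between 4.37 and 4.92. At day 7 the difference was 2.07 ± 0.79 and missed the threshold (adjusted p = 0.0748), although the libraries did not overlap. It passed with DESeq2 (adjusted p = 0.0394) and with only the 2 groups compared (adjusted p = 0.000343). It also passed without day-14 replicate 1 (adjusted p = 0.0316) and without day-14 replicate 3 (adjusted p = 0.000734). Those day-14 libraries enter the day-7 test through the shared estimate of spread. At day 14 the difference was 2.88 ± 0.80 (adjusted p = 0.0860) and fell to 0.82 without replicate 3 (adjusted p = 0.307). The day-14 mean therefore depends on 1 library.

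The reference sequence just upstream of Aldh1a3 is shown because this gene changed most. It is the run of 250 bases before the RefSeq start of the gene, on chr1:129427644-129427893 of GRCr8, minus strand, written 5′ to 3′ along the gene. Capitals mark a CCAAT 70 bases before the start and a CATAAA 29 bases before it.
Aldh1a3 upstream: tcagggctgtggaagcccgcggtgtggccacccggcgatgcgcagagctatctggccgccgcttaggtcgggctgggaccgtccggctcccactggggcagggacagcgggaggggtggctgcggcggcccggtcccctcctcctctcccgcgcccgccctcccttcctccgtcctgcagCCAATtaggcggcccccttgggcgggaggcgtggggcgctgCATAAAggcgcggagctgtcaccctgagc
Each of the 33469 RefSeq windows runs from 250 bases before to 50 bases after a gene's start. For these letters only the 250 bases before the start were searched, on either strand. There CCAAT occurs in 34.0% and CATAAA in 11.4% of windows. Both are descriptions of the sequence, and no deposited measurement bears on binding there.

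Several cell type markers moved alongside Aldh1a3 at day 28. Urothelial markers (Upk1a, Upk1b, Upk2, Upk3a, Krt5, Krt20 and Tp63) summed to between 5042 and 5789 CPM in controls and between 3347 and 4228 CPM at day 28, and 4 of the 7 were called lower. Krt20, the keratin of the surface layer, went from 67.4 ± 10.1 to 1.14 ± 0.509 CPM, and the basal keratin Krt5 stood at 133 ± 37.1 and 347 ± 98.5 CPM (log2 fold change 1.39, adjusted p = 0.0699). Macrophage markers (Cd68, Csf1r, Adgre1 and Cd163) summed to between 205 and 241 CPM in controls and between 542 and 790 CPM at day 28, with 4 of 4 called higher. Dendritic cell markers (Flt3, Xcr1, Itgax, Ccr7 and Batf3) rose from between 8.35 and 12.9 to between 48.5 and 73.8 CPM, with 4 of 5 called higher. Smooth muscle markers (Myh11, Acta2, Cnn1, Des and Tagln) summed to between 18958 and 21539 CPM in controls and between 7770 and 17207 CPM at day 28, with 1 of 5 called lower. Fibroblast markers (Pdgfra, Dcn, Lum, Dpt, Pi16 and Col1a1) summed to between 11516 and 15487 CPM in controls and between 4593 and 9374 CPM at day 28, with 1 of 6 called higher and 2 lower. Endothelial markers (Pecam1, Cdh5, Kdr and Tek), at 130 to 146 CPM in controls and 204 to 319 CPM at day 28, had 3 of 4 called higher, as did the proliferation genes Mki67, Top2a, Ccna2 and Bub1, at 16.5 to 39.2 and 46.3 to 143 CPM. The day-14 libraries, of which replicate 3 was high for Aldh1a3, had macrophage sums of 243, 401 and 374 CPM, urothelial sums of 4514, 4820 and 4234 CPM and dendritic cell sums of 22.8, 23.1 and 35.0 CPM in replicates 1, 2 and 3. The mesothelial sum (markers named with Aldh1a2) was 524, 854 and 1338 CPM in the same order. Replicate 3 held the highest dendritic cell and mesothelial sums of the 3 libraries, the lowest urothelial sum and a macrophage sum between the others. The mesothelial sum did not follow its list. At day 14 its mean was 905 CPM, against 801 CPM in controls, while the 6 genes had a median log2 fold change of -0.35. EdgeR called 0 of these 6 genes at day 14, with 0 at an unadjusted p below 0.05. Of further lists at day 28 against control, 3 of 6 fat cell genes were called higher. In the same comparison, 3 of 4 Schwann cell and 1 of 3 tested skeletal muscle genes were called lower. Of the 6 mesothelial genes, 1 was called higher and 1 lower, with a median log2 fold change of -1.39. Fat cell and skeletal muscle genes apart, no gene of these lists was at 0 in any library. The part of these cells in the day-28 results of Aldh1a3 and Stra6 was not tested.

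Aldh1a2, the main retinoic acid enzyme of mesenchyme and mesothelium in the embryo, lies on rn6 chromosome 8 at 77640234 to 77719488. Its level was 42.6, 39.9 and 51.6 CPM in controls and 53.1, 113 and 91.7 CPM at day 7. The day-7 libraries were all above the controls, replicate 1 only just. At day 14 levels were 13.2, 41.5 and 35.3 CPM and at day 28 they were 29.5, 43.3 and 36.9 CPM, so both late groups overlapped the controls. The difference at day 7 was 0.94 ± 0.36 (adjusted p = 0.0774), 1.92-fold and short of the threshold. It passed with DESeq2 (adjusted p = 0.0330), with only the 2 groups compared (adjusted p = 0.0260), without day-7 replicate 1 (adjusted p = 0.0332) and without day-14 replicate 1 (adjusted p = 0.0164). At day 14 the difference from control was -0.58 ± 0.36 (adjusted p = 0.454) and at day 28 it was -0.29 ± 0.36 (adjusted p = 0.628).

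The mesothelial markers beside it (Msln, Upk3b, Lrrn4, Wt1, Krt19 and Bnc1) summed to between 791 and 814 CPM in controls and between 565 and 1004 CPM at day 7, with 0 of 6 called by edgeR and 1 at an unadjusted p below 0.05. Wt1, a mesothelial transcription factor, was at 21.6 ± 3.38 CPM in controls and 44.6 ± 18.9 CPM at day 7. The list went both ways at day 7: its log2 fold changes ran from -0.73 to 1.04, with a median of 0.09. None of the 6 was at 0 in any library, and their part in the Aldh1a2 values was not tested.

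Aldh1a1, the third of these enzymes, which also acts on other aldehydes, lies on rn6 chromosome 1 at 238222689 to 238264381. It was between 28.7 and 36.7 CPM in controls, 26.4, 14.9 and 8.11 CPM at day 7, 8.48, 27.4 and 25.8 CPM at day 14, and 6.40, 24.0 and 37.3 CPM at day 28. The day-7 and day-14 libraries were all below the controls, and at day 28 the spread ran from well below to just above them. The difference at day 7 was -0.96 ± 0.59 (adjusted p = 0.256), at day 14 -0.64 ± 0.59 (adjusted p = 0.631) and at day 28 -0.51 ± 0.59 (adjusted p = 0.598). Its near copy Aldh1a7, which could share reads with it, held 3, 9, 4 and 2 counts in all in the control, day-7, day-14 and day-28 groups.

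Per deposited gene length, the 3 enzymes changed places. On the deposited TPM, which divide the reads by gene length and scale each library to 1 fixed total, Aldh1a3 made up 5.83% ± 0.888 (SD, n = 3) of the summed Aldh1a1, Aldh1a2 and Aldh1a3 level in controls, 17.0% ± 1.89 at day 7 and 67.7% ± 3.48 at day 28. The day-14 libraries held 23.4%, 12.9% and 59.3%. The day-28 range of 63.7% to 70.0% lay above all other libraries. In the order control, day 7, day 14 and day 28, the mean share of Aldh1a2 was 53.1%, 67.7%, 39.7% and 20.6%, and that of Aldh1a1 was 41.1%, 15.4%, 28.4% and 11.7%. In the same order, the summed level was 76.5 ± 4.97, 104 ± 23.8, 82.1 ± 58.3 and 175 ± 62.5 TPM. These shares are descriptions and were not tested.

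**Figure D2:**
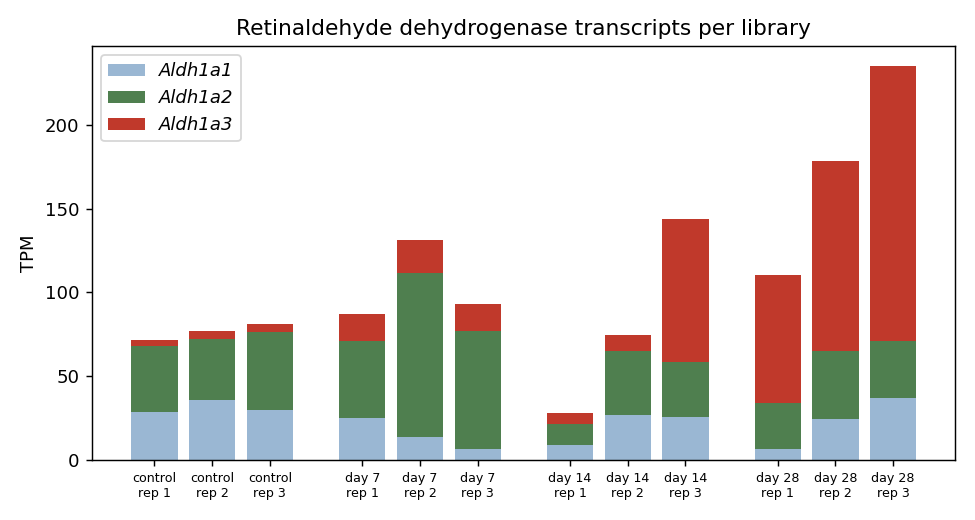
Summed TPM of the 3 retinal dehydrogenase genes in each of the 12 libraries, as stacked bars from 0 that show the part of each gene. Aldh1a3 is the largest part in all 3 day-28 libraries and in day-14 replicate 3, and the smallest part in all 3 control libraries.

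Crabp1 (rn6 chromosome 8, 59344097 to 59352135), which binds retinoic acid in the cytosol, was near 0 in every library. Control libraries held 1, 13 and 7 reads, day-7 libraries 8, 5 and 8, day-14 libraries 4, 0 and 5, and day-28 libraries 2, 0 and 2. The summed reads were 21, 21, 9 and 4. Relative to control and scaled for library size, the ratio was 1.01 at day 7 (95% interval 0.523 to 1.94), 0.425 at day 14 (0.171 to 0.969) and 0.176 at day 28 (0.0439 to 0.521). These exact intervals cover counting error only, and the 3 control libraries alone ran from 1 to 13 reads.

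Crabp2, which hands retinoic acid to its receptors and is common in stratified epithelium, lies on rn6 chromosome 2 at 187322416 to 187326794 and was among the most abundant members. It was at 70.3, 86.3 and 79.4 CPM in controls and at 40.7, 51.4 and 57.1 CPM at day 7. Every day-7 library was below every control. At day 14 it was at 67.5, 54.6 and 90.4 CPM and at day 28 at 70.6, 70.7 and 102 CPM, with both groups overlapping the controls. The day-7 level was lower by 0.66 on the log2 scale (-0.66 ± 0.20, adjusted p = 0.0327), which is 1.58-fold. The call was lost without any 1 of the control libraries or day-7 replicate 1 or 2, with adjusted p between 0.0507 and 0.105. At day 14 the difference was -0.15 ± 0.20 (adjusted p = 0.761) and at day 28 it was 0.04 ± 0.20 (adjusted p = 0.907).

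The urothelial marker sum was also lower at day 7, between 3161 and 3834 CPM against 5042 to 5789 CPM in controls, with 5 of 7 markers called lower. Its part in the Crabp2 result was not tested. The deposited transcript table counts the curated RefSeq transcript of Crabp2 separately from a longer predicted model, and reads that fit both count for both. Reads on the curated transcript were 90.8% to 96.0% of the gene's reads in the control, day-7 and day-28 libraries. At day 14 they were 85.3%, 91.6% and 76.7%, the lowest value being in replicate 3.

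Rarb, the receptor that is both a sensor and a target of retinoic acid, lies on rn6 chromosome 15 at 9915223 to 10262599. It was at 17.7, 18.3 and 13.5 CPM in controls and at between 13.4 and 16.8 CPM at day 7. It was at 13.4, 12.0 and 9.31 CPM at day 14 and at 8.64, 12.2 and 13.4 CPM at day 28. All 6 late libraries were below the lowest control, by a narrow margin in 1 library of each group. The difference from control was -0.13 ± 0.19 at day 7 (adjusted p = 0.648), -0.51 ± 0.20 at day 14 (adjusted p = 0.194) and -0.53 ± 0.20 at day 28 (adjusted p = 0.0819). With DESeq2 the day-28 adjusted p was 0.0494. Libraries did not overlap those of controls for 24.7% of all tested genes at day 14 and 40.5% at day 28.

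Rarb and Cyp26a1, the textbook targets, are shown with the retinoic acid response element that a search of the RefSeq windows found in each. The search took 2 units in the same direction with a spacer of 5 bases, on both strands, where a unit was AGGTCA or its variant AGTTCA, or else GGGTCA or its variant GGTTCA. Capitals mark the repeats, with 6 flanking bases on each side. The Rarb run is chr15:11336410-11336438 of GRCr8, plus strand, with the element 25 to 41 bases after the RefSeq start. The Cyp26a1 run is chr1:244883724-244883752 of GRCr8, plus strand, with the element on the opposite strand, 92 to 76 bases before the start.
Rarb: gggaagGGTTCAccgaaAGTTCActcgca
Cyp26a1: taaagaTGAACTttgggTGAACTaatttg
Such a repeat was in 128 of 33469 windows (0.382%). Repeats with a spacer of 1 base (0.233% of windows) or 2 bases (0.17%) were in the window of no member and of no other retinoid gene listed. A single unit of the repeat was in 44.4% of windows, those of Aldh1a1, Rarb and Stra6 among the members. All 9 members had a window, and a missing match says only that these letters are not there.

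Rarb held 259 to 509 reads in every library. Cyp26a1 held 4, 7, 8 and 15 reads in all in the control, day-7, day-14 and day-28 groups, too few to test. Cyp26b1, the only CYP26 gene with enough reads to test, was at 3.63 ± 0.951, 2.25 ± 1.17, 1.75 ± 1.00 and 2.28 ± 1.28 CPM in the same order. It was called in no comparison with control, with differences of -0.69 ± 0.56 (adjusted p = 0.396), -1.05 ± 0.57 (adjusted p = 0.371) and -0.67 ± 0.56 (adjusted p = 0.448).

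Per deposited gene length, the order of the members was led by Dhrs3 (83.7 ± 22.2 TPM), Crabp2 (66.0 ± 6.21), Aldh1a2 (40.7 ± 5.13) and Aldh1a1 (31.4 ± 3.88) in controls. Rarb (8.11 ± 1.35), Aldh1a3 (4.49 ± 0.920) and Rbp4 (3.81 ± 2.96) followed, with Crabp1 (0.681 ± 0.592) and Stra6 (0.335 ± 0.216) last. The libraries of Dhrs3 and Crabp2 overlapped, as did those of Aldh1a3 and Rbp4 and of Crabp1 and Stra6. At day 28 Aldh1a3 had moved from sixth to first (118 ± 44.1 TPM), followed by Dhrs3 (87.8 ± 18.1) and Crabp2 (69.3 ± 14.9). Those 3 genes overlapped over their libraries at day 28. The gene length used for Crabp2 was 2432 bases, while its curated transcript has 772 bases. The order of Dhrs3, Crabp2 and Aldh1a3 therefore depends on the length used.

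**Figure D3:**
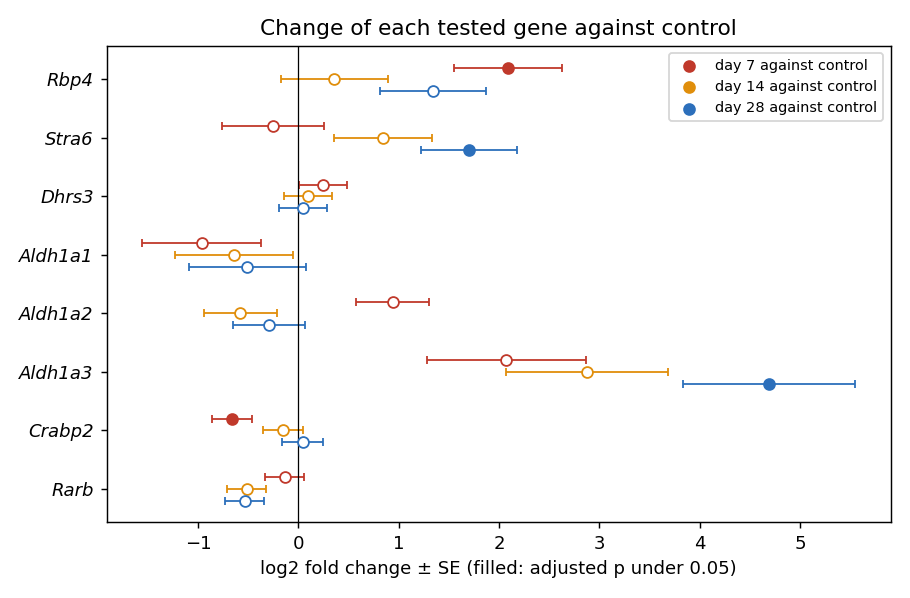
Log2 fold change of each tested member at days 7, 14 and 28 against control, with bars of 1 SE from edgeR and filled points where the adjusted p was below 0.05. Filled points stand for Rbp4 and Crabp2 at day 7 and for Aldh1a3 and Stra6 at day 28.

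Between the days after transection, 2 of 8 members were called from day 7 to day 14, both lower (Aldh1a2 and Rbp4), where 19.5% of all genes were called, 12% lower. From day 14 to day 28, edgeR and DESeq2 each called 0 members and 1 had an unadjusted p below 0.05, where edgeR called 4.34% of all genes. From day 7 to day 28, 4 were called (Aldh1a3, Crabp2 and Stra6 higher, Aldh1a2 lower), where 18.7% of all genes were called, 7.89% higher and 10.8% lower. Aldh1a2 was lower at day 14 than at day 7 by 1.52 on the log2 scale (-1.52 ± 0.37, adjusted p = 0.0154), a call lost with only the 2 groups compared (adjusted p = 0.0658) and without day-7 replicate 2 (adjusted p = 0.0670). Rbp4 was lower at day 14 than at day 7 (-1.73 ± 0.53, adjusted p = 0.0400), a call lost without control replicate 1 or any 1 library of day 7 or day 14, with adjusted p between 0.0537 and 0.105. Neither value changed its sign under any alternative.

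At day 28, Aldh1a3 was above its day-7 level by 2.62 ± 0.77 (adjusted p = 0.0341) and Stra6 by 1.95 ± 0.49 (adjusted p = 0.0181), with no overlap of libraries for either. Crabp2 was above its day-7 level by 0.71 ± 0.20 (adjusted p = 0.0319) and Aldh1a2 differed from it by -1.24 ± 0.37 (adjusted p = 0.0363), again without overlap. Between those days the libraries of 35.8% of all genes did not overlap. The 6 mesothelial markers had a median change of -1.23 from day 7 to day 28, with Krt19 called higher and Wt1 called lower (44.6 ± 18.9 to 8.53 ± 5.70 CPM), and from day 7 to day 14 a median of -0.48 with 0 called by edgeR and 1 at an unadjusted p below 0.05. Their part in the Aldh1a2 results was not tested. Leaving out 1 library ended the call of Aldh1a3 for control replicate 2, each day-7 library and day-28 replicates 2 and 3 (adjusted p up to 0.0974). It ended that of Stra6 for day-7 replicates 2 and 3 and day-28 replicate 3 (up to 0.0634). That of Crabp2 ended for day-7 replicates 1 and 2 and day-28 replicate 3 (up to 0.127), and with only the 2 groups compared (0.0531). That of Aldh1a2 ended for control replicates 1 and 2, day-7 replicates 2 and 3 and each day-28 library (up to 0.136). From day 14 to day 28 Aldh1a3 differed by 1.81 ± 0.74 (adjusted p = 0.200), and without day-14 replicate 3 by 3.87 (adjusted p = 0.000863). From day 7 to day 14 it differed by 0.81 ± 0.73 (adjusted p = 0.483), and without that library by -1.25 (adjusted p = 0.0242), a reversed sign.

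The rest of the retinoid pathway was read from a list of 48 other genes, of which 47 were in the table and 41 were tested. At day 7, 15 of the 41 were called (36.6%), 7 higher and 8 lower, beside 26.1% of all genes, 15.6% higher and 10.5% lower. At day 14 edgeR called 0 of 41, 8 had an unadjusted p below 0.05 and DESeq2 called 4, where edgeR called 2.45% of all genes. At day 28, 6 were called (14.6%), 3 higher and 3 lower, beside 18.5% of all genes. The median log2 fold change of the 41 genes was 0.02, -0.04 and -0.06 at the 3 days, beside -0.01, 0.00 and 0.00 for all genes.

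Among the 8 uptake and storage genes, 3 were called at day 7 (37.5%, beside 26.1% of all genes), 2 higher and 1 lower. Rbp2, a retinol binding protein of intestine, held 4 reads over the control libraries, 34 at day 7, 9 at day 14 and 63 at day 28. It was called higher at day 7 (2.98 ± 0.72, adjusted p = 0.0112) and at day 28 (3.74 ± 0.70, adjusted p = 0.00418). Stra6l (listed as RGD1305807), a further RBP4 receptor, held 34, 51, 108 and 255 reads and was called higher at day 28 (2.78 ± 0.48, adjusted p = 0.00257). Both RBP4 receptors of the list were thus highest at day 28, at low levels. Ttr, the blood partner of RBP4, held 50, 7, 50 and 33 reads and was called lower at day 7 (-2.76 ± 0.75, adjusted p = 0.0189).

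Of the 14 tested oxidoreductases of retinol and retinal and carotene-cleaving enzymes, 4 were called at day 7 (28.6%, beside 26.1% of all genes), all lower (10.5% of all genes), and 0 at days 14 and 28 by edgeR, with 0 and 1 at an unadjusted p below 0.05. The 4 were Rdh5 (-1.60 ± 0.37, adjusted p = 0.00916), Adh7 (-1.28 ± 0.40, adjusted p = 0.0339), Rdh13 (-0.69 ± 0.14, adjusted p = 0.00473) and Rdh11 (-0.35 ± 0.11, adjusted p = 0.0418). Adh7, an alcohol dehydrogenase of epithelia that oxidises retinol, went from 17.7, 13.1 and 16.0 CPM in controls to 7.77, 7.44 and 3.98 CPM. Rdh10, which makes retinal for retinoic acid synthesis, was at 12.2 ± 1.03 CPM in controls and 17.6 ± 1.72 CPM at day 28 (0.53 ± 0.24, adjusted p = 0.160). Its day-28 libraries lay above all controls without passing the test.

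Of the 11 receptors and cofactors, 6 were called at day 7 (54.5%, beside 26.1% of all genes), 3 higher and 3 lower. Rara, the most widely expressed of the receptors, went from 46.9 ± 4.02 to 65.5 ± 5.70 CPM (0.48 ± 0.11, adjusted p = 0.00890) and was back at 48.6 ± 5.15 and 48.2 ± 4.15 CPM at days 14 and 28. Rarg, the receptor of epithelia, was at 94.5 ± 13.9 and 77.6 ± 5.41 CPM in control and day-7 bladder (-0.28 ± 0.12, adjusted p = 0.112). The orphan receptor Nr2f2 was also called higher (0.38 ± 0.12, adjusted p = 0.0363). Lower at day 7 were the partner receptor Rxrg (-1.51 ± 0.40, adjusted p = 0.0170), the cofactor Nrip1 (-0.60 ± 0.14, adjusted p = 0.0107) and Nr2f1 (-0.60 ± 0.18, adjusted p = 0.0301). Nr2f1, a nuclear receptor gene that retinoic acid is known to induce, was lower still at day 28: 24.8, 23.2 and 21.5 CPM in controls against 10.2, 11.4 and 11.2 CPM (-1.08 ± 0.18, adjusted p = 0.00236).

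Of the 7 tested target genes, 2 were called at day 7 (28.6%, beside 26.1% of all genes), 2 higher and 0 lower. At day 28, 3 were called (42.9%, beside 18.5% of all genes), 1 higher and 2 lower. Rarres1, named for its induction by a retinoid, was at 6.58, 5.58 and 5.18 CPM in controls, between 16.1 and 26.9 CPM at day 7, 7.64, 13.3 and 13.7 CPM at day 14 and 28.3, 27.1 and 51.2 CPM at day 28. It was called higher at day 7 (1.91 ± 0.30, adjusted p = 0.00109) and at day 28 (2.62 ± 0.31, adjusted p = 0.000292). Tgm2, a protein-crosslinking enzyme, was called higher at day 7 only among the comparisons with control (0.58 ± 0.15, adjusted p = 0.0170). The homeobox genes Meis1 (-0.61 ± 0.16, adjusted p = 0.0231) and Meis2 (-0.79 ± 0.21, adjusted p = 0.0234) were called lower at day 28. A link of these genes to Aldh1a3 was not tested.

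**Figure D4:**
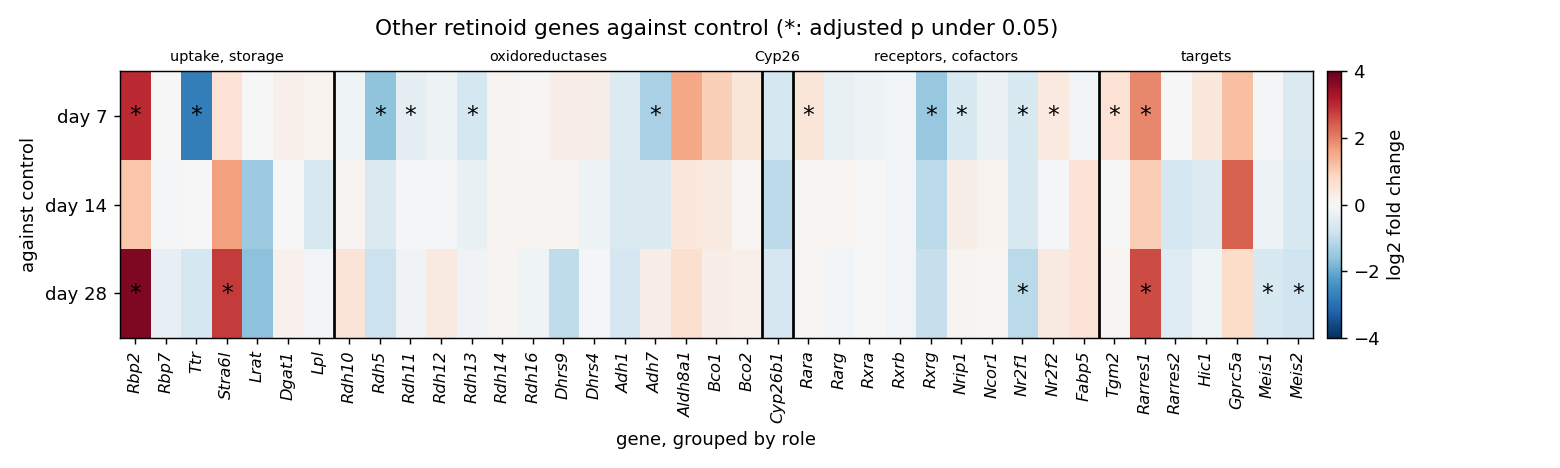
Log2 fold change against control (colour scale) of tested retinoid pathway genes at days 7, 14 and 28, grouped by role, with a mark where the adjusted p was below 0.05. Marks stand in both colours at day 7, nowhere at day 14, and on 6 genes at day 28, of which Rbp2, Stra6l and Rarres1 are higher.

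For the members called against control, the genes with the most similar course over the 12 libraries were sought by the root mean square (RMS) difference of centred log2 CPM. For Aldh1a3, whose own SD over the libraries was 1.86 log2 units, the nearest genes were Il1b, the inflammatory cytokine interleukin-1 beta (RMS difference 0.45), Ms4a12 (0.46) and MGC105649 (0.65). Il1b was at 1.53, 1.57 and 2.64 CPM in controls and at 5.57, 6.78 and 8.36 CPM at day 7. Its day-14 libraries stood at 4.37, 3.78 and 24.6 CPM and its day-28 libraries at 14.2, 48.4 and 67.6 CPM. Its day-14 replicate 3 was high, as for Aldh1a3. This is no separate result, because the nearest genes were picked for a similar course over these same 12 libraries. For Crabp2 (own SD 0.36) they were Lad1 (0.14), a basement membrane anchor gene of epithelia, Perp (0.15), a gene of desmosomes, and Sdc1 (0.15), a heparan sulfate proteoglycan of epithelia. For Rbp4 (own SD 1.08) they were Gja4 (0.57), a connexin of arterial endothelium, Fap (0.57), a protease of activated fibroblasts, and Slc7a7 (0.58). For Stra6 (own SD 0.90) they were Nfkbia (0.31), the inhibitor of NF-kappa-B, Pllp (0.48) and Tjp3 (0.48), a tight junction protein.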

How the data were processed

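Total RNA of whole bladder was depleted of ribosomal RNA and sequenced as single-end reads of 50 bases, per the labels' protocols. The submitters' processing notes name HISAT2 2.1.0, HTSeq 0.11.2, bcl2fastq and the rn6 genome; the counting options, strand included, are not given in the sources used here. The deposited gene table holds whole-number counts per gene and library and the authors' TPM, which the deposited counts divided by the table's gene length reproduce. A deposited transcript table gives counts per transcript. Here, genes passing edgeR's filterByExpr (minimum count 10, minimum total 15) were tested in 1 quasi-likelihood fit of the 4 groups over all 12 libraries, with TMM scaling, in edgeR 4.0.16 under R 4.3.3, after a test on simulated counts. Each standard error is approximate, from the size of the log2 fold change and the test's F value. Alternatives were DESeq2 1.42.0, RLE scaling, no filter, a mean of at least 5 CPM, 2-group fits, a replicate block and leaving out each library. Counting members on their RefSeq transcript was added after seeing the data. The members, pathway genes and markers were chosen with earlier results of these data known, so the lists get no test of their own. Named are all members, pathway genes called against control, Cyp26a1, Cyp26b1, Rdh10, Rara, Rarg and Aldh1a7, and the 3 genes nearest to each called member (mean at least 5 CPM, log2 with a prior count of 1). Some pathway genes that were tested and counted are not reported here by name. Sequences are from RefSeq tables of GRCr8.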

Additional observations from a re-analysis of the deposited data

Results flagged for a closer look

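For 5 members the change from control differed between 2 days after transection, by edgeR's quasi-likelihood test of the difference itself. Aldh1a2 differed between day 14 and day 7 by -1.52 and between day 28 and day 7 by -1.24 on the log2 scale. Rbp4 differed between day 14 and day 7 by -1.73. Between day 28 and day 7, Aldh1a3 differed by 2.62, Stra6 by 1.95 and Crabp2 by 0.705.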

How the results depend on the processing

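The day-28 rise of Aldh1a3 against control kept its call under all 19 alternatives. RLE scaling and counting members on their RefSeq transcript, the alternative added after seeing the data, changed no call of a member. A mean of at least 5 CPM left Rbp4 and Stra6 untested. DESeq2 called 4 members at day 7, 1 at day 14 and 4 at day 28 against control, 4 pathway genes at day 14, and 1360 genes at day 14 and 1647 from day 14 to day 28. With a mean of at least 5 CPM, 1 member was called at day 7, 1 at day 28 and 1 from day 7 to day 14, 1 pathway gene from day 14 to day 28, and 251 genes at day 14. Without the low-count filter, 1 member was called at day 14 and 1 pathway gene from day 14 to day 28. With only the 2 groups compared, 4 members were called at day 7 and 1 from day 7 to day 14. Pathway calls were then 1 at day 14, 11 at day 28, 4 from day 7 to day 14 and 0 from day 14 to day 28, and 2195 genes were called from day 7 to day 14 and 42 from day 14 to day 28. The cause of these differences was not tested.

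The labels name no batch, and whether the replicate numbers link libraries across groups was not tested. Of 18 same-numbered pairs, 4 had deviations correlated over 0.1, in a range of -0.0167 to 0.146. Pairs of unlike number went down to -0.196, and 9 of 12 libraries correlated best with their own number. The fit with a replicate block called 4 members at day 7, Aldh1a2 (adjusted p = 0.0373) and Aldh1a3 (adjusted p = 0.0332) being added, and 1 pathway gene from day 14 to day 28. From day 7 to day 14 the adjusted p of Rbp4 was 0.0588 and that of Crabp2 0.0422. Other counts of calls stayed within 1.5 times.

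Leaving out each library in turn gave these lowest and highest counts. Genes called ran from 3061 to 4948 at day 7, 16 to 579 at day 14 and 1971 to 3580 at day 28 against control, 1959 to 3706 from day 7 to day 14, 261 to 1120 from day 14 to day 28, and 1954 to 3548 from day 7 to day 28. In the same order, members called ran from 0 to 4, 0 to 1, 1 to 3, 0 to 2, 0 to 1 and 0 to 4. Pathway genes called ran from 8 to 16, 0 to 1, 4 to 8, 4 to 12, 1 to 2 and 6 to 12. The log2 fold changes that changed sign ran from -0.63 to 0.36 (Stra6, day 7), -0.36 to 0.0061 (Crabp2, day 14), -0.047 to 1.19 (Rbp4, day 14), -0.075 to 0.34 (Dhrs3, day 14), -0.15 to 0.14 (Crabp2, day 28) and -0.088 to 0.27 (Dhrs3, day 28). From day 7 to day 14 they ran from -1.25 to 1.30 (Aldh1a3) and -0.32 to 0.093 (Dhrs3), and from day 7 to day 28 from -0.11 to 0.97 (Aldh1a1). From day 14 to day 28 they ran from -0.43 to 0.56 (Aldh1a1), -0.084 to 0.59 (Aldh1a2), -0.17 to 0.13 (Rarb), -0.0034 to 0.39 (Crabp2) and -0.30 to 0.11 (Dhrs3). Apart from Aldh1a3, these genes were not called in those comparisons under any of these settings. Low read numbers limit Stra6, Rbp4 and Crabp1 most, and 3 libraries per group limit every test.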
